A study of Mus musculus with 14 samples.

Results

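The mitochondrial carrier genes examined here are the 45 protein-coding mouse genes whose symbol starts with Slc25a, apart from Slc25a15 and Slc25a20, out of 21887 protein-coding genes in the RefSeq annotation of GRCm38.p6 (mm10 coordinates). Each gene was read together with 5 kb on both sides, called its window below. The windows of Slc25a23 and Slc25a41 overlap, as do those of Slc25a24 and Slc25a54, so that the members occupy 43 separate stretches of 2.14 Mb. In 28 of the 45 windows lies part of the body of another protein-coding gene, and a region there cannot be assigned to the carrier alone.

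The study compared liver of wild-type mice (WT) with liver of mice carrying an inducible YAP transgene (YAP), all on the C57BL/6 background. YAP is a transcriptional co-activator that acts through TEAD factors. Every sample's label gives doxycycline at 50 mg/L for 10 days, and it is not stated whether the wild-type mice also drank it, which promoter drives the transgene, or what sex and age the mice had. Chromatin was cut with MNase to 150 to 900 bp and immunoprecipitated with antibodies to H3K4me1, H3K4me2 or the histone demethylase LSD1, with 2 replicates per antibody and genotype. The processed data are 6 region lists, and each antibody has 1 per genotype, so the replicates share a list, no spread between them can be computed and no difference below has a test. Intervals given with shares are 95% Wilson intervals over genes or regions and cover counting error only.

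SLC25 proteins sit mostly in the inner mitochondrial membrane and exchange metabolites between the matrix and the cytosol: adenine nucleotides and phosphate, di- and tricarboxylates, amino acids, cofactors and iron. In hepatocytes these exchanges connect the matrix with the cytosolic steps of the urea cycle, gluconeogenesis and fatty acid synthesis. H3K4me2 marks active or poised promoters and enhancers, H3K4me1 is found mainly at enhancers, and LSD1 (Kdm1a) removes methyl groups from mono- and dimethylated H3K4.

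The lists differ in length, with 54219 H3K4me2 regions in WT and 51676 in YAP, 5905 and 6274 H3K4me1 regions, and 1500 and 2949 LSD1 regions after overlapping ones were merged. Sequencing depth is unknown, because the lists hold no read numbers. All 8 hepatocyte marker genes carried H3K4me2 in both genotypes, and all 8 had fewer covered bases in YAP (82.5 kb in WT and 58.8 kb in YAP, summed over the list). Of 9 leukocyte and macrophage markers, 6 had no H3K4me2 in WT and 2, Cd3e and Lyz2, had none in YAP, and the summed length was 7.39 kb in WT and 18.4 kb in YAP. Of 7 biliary and progenitor markers 3 had more and 2 fewer bases in YAP, with Krt7 and Krt19 at 0 in both genotypes, and the sum was 13.4 kb in WT and 19.4 kb in YAP. Of 5 endothelial markers 4 had more bases in YAP, with Lyve1 at 0 in both genotypes. Their sum was 3.66 kb in WT and 7.26 kb in YAP. Stab2 had 2.16 kb in WT and 4.71 kb in YAP, and Kdr 1.51 and 1.53 kb. Of 5 stellate markers 2, Reln and Hand2, had fewer bases in YAP and 1, Lrat, had more. Des and Pdgfrb were at 0 in both genotypes. The stellate sum was 8.08 kb in WT and 2.15 kb in YAP, of which Reln made up 6.38 and 1.52 kb. In bulk liver, fewer cells of a type and less mark per cell cannot be told apart, and the part of these markers' differences in the values below was not tested.

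Most carrier genes were marked by H3K4me2 in both genotypes, and in 33 of the 42 marked genes the covered lengths themselves differed by less than 1.5-fold. No share of all genes is available beside this count of 33, so it is not read as particular to the carriers. At least 1 H3K4me2 region lay in 42 of 45 windows (93.3%, 82.1 to 97.7), against 68.1% of all protein-coding genes, and 41 had one in both lists. The exception was Slc25a37, with a region in YAP only. Slc25a18, Slc25a31 and Slc25a54 had no region of any antibody in either genotype. Slc25a31 is the adenine nucleotide carrier of the male germ line, and Slc25a18 is a glutamate carrier.

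Of the 42 marked genes, 28 had fewer H3K4me2-covered bases in YAP than in WT (66.7%, 51.6 to 79.0), beside 59.1% of the 14915 protein-coding genes with H3K4me2. The other 14 had more (33.3%), beside 40.8% of all. A difference of at least 1.5-fold, taken after adding 500 bases to both values, was seen downward in 2 carriers, Slc25a13 and Slc25a44 (4.76%, beside 7.25% of all genes), and upward in 3, Slc25a4, Slc25a5 and Slc25a37 (7.14%, beside 7.71%). With no bases added the lengths differed at least 1.5-fold downward in 5, also in Slc25a26, Slc25a42 and Slc25a45, and upward in 4, also in Slc25a43. With the added bases, 37 of the 42 carriers and 12684 of the 14915 marked genes lay within 1.5-fold. The shares of carriers within and past 1.5-fold thus lie near those of all genes. Without the added bases no share of all genes is available. The median log2 of YAP over WT was -0.069 over the 42 carriers and -0.062 over all marked genes, with the middle 50% of carriers between -0.21 and 0.13. In 13 carriers the log2 lay between -0.1 and 0.1. The median coverage of a carrier was 4.53 kb for WT and 4.15 kb for YAP, and the median of all marked genes was 3.64 and 3.46 kb.

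**Figure D1:**
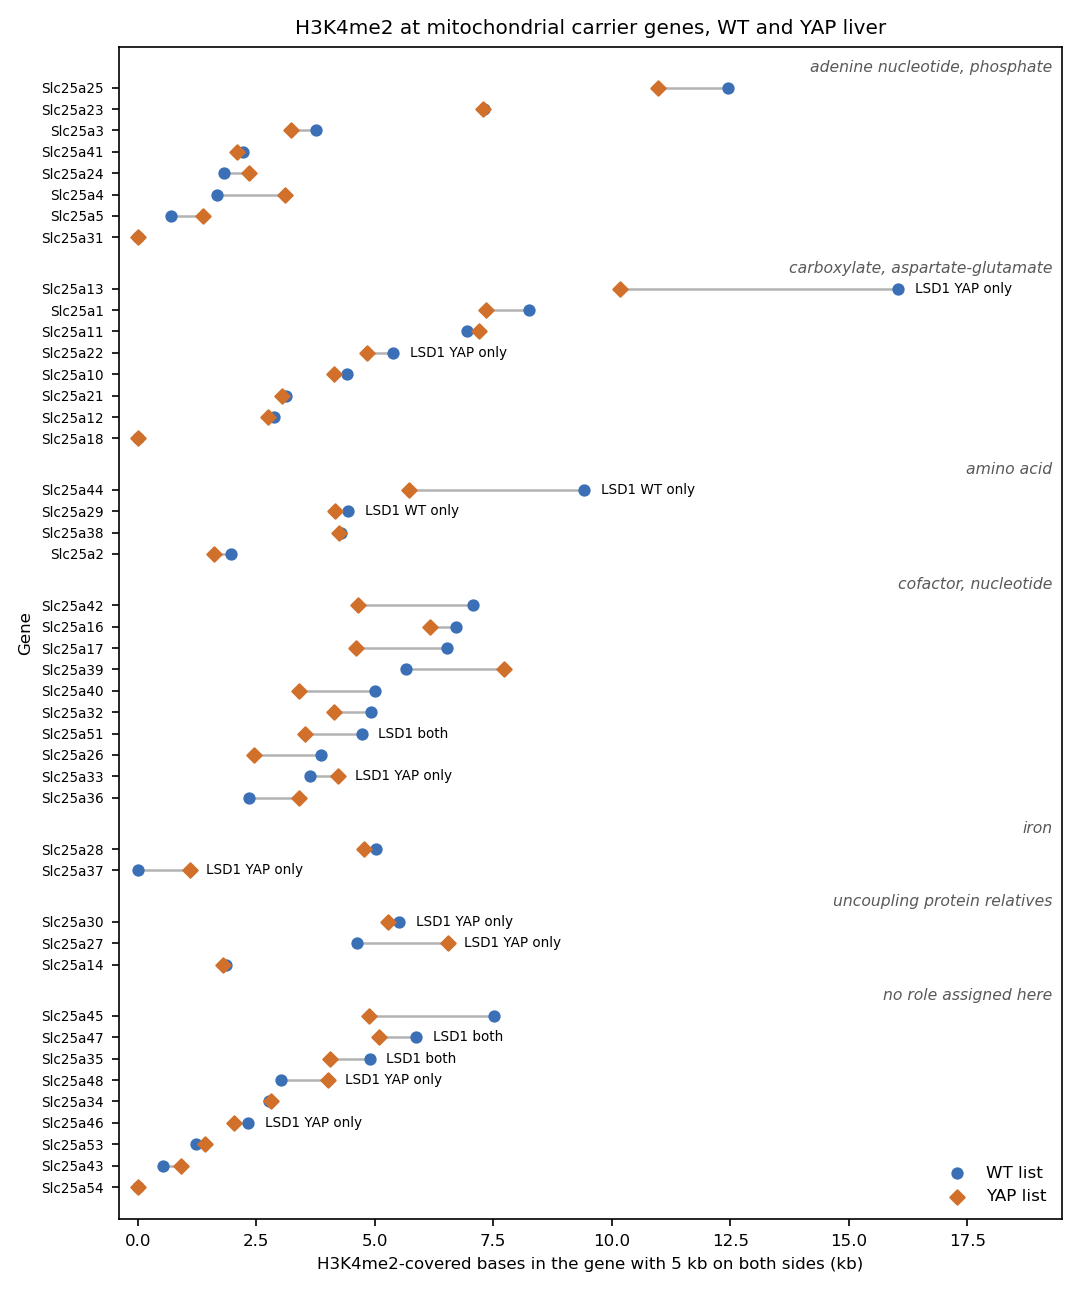
H3K4me2-covered kb in the window (gene plus 5 kb on each side) of 44 of the carrier genes, by group of carriers, in the WT list (blue) and the YAP list (orange). Each point is 1 list, the line joins the genotypes of a gene, and text marks genes with an LSD1 region. Slc25a13 has the longest coverage in WT (16.1 kb, with 10.2 kb in YAP), Slc25a25 the longest in YAP (11.0 kb), and Slc25a18, Slc25a31 and Slc25a54 lie at 0 in both.

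Over all windows together, H3K4me2 extended over 198 kb (WT) and 180 kb (YAP), a ratio of 0.909, and the ratio of the whole lists was 0.938. By number of regions, 12 carriers had more in YAP, 15 fewer and 15 the same number. Of the 28 carriers with fewer bases, 16 had no fewer regions. The same counts over all marked genes are not available, so neither count is read as particular to the carriers. Of 187 WT regions at the carriers, 75.4% (68.8 to 81.0) overlapped a YAP region, beside 73.6% of all WT regions. Of 175 YAP regions, 84.6% (78.5 to 89.2) overlapped a WT region, beside 78.4% of all YAP regions. The regions found in 1 genotype were short and low in the authors' score. The 46 WT-only regions had a median length of 320 bp and a median score of 49, against 934 bp and 152 for the 141 WT regions also found in YAP. The 27 YAP-only regions had a median of 270 bp and a score of 45, against 922.5 bp and 128 for the 148 shared ones.

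LSD1 lay in the windows of 13 carriers (28.9%, 17.7 to 43.4), beside 14.0% of all protein-coding genes and 20.3% of those with H3K4me2. It was listed in YAP only at 8 carriers (17.8%, 9.29 to 31.3), beside 8.08% of all genes and 11.7% of genes with H3K4me2. These are Slc25a13, Slc25a22, Slc25a27, Slc25a30, Slc25a33, Slc25a37, Slc25a46 and Slc25a48. Slc25a27 and Slc25a46 had no LSD1 region when the lists were cut to equal size or to the higher-scoring 50%, and Slc25a30, Slc25a33 and Slc25a37 had none inside the gene. Within 20 kb, Slc25a13, Slc25a22, Slc25a27 and Slc25a33 also had a WT region. It was listed in WT only at Slc25a29 and Slc25a44 (4.44%, beside 2.86% and 4.14%) and in both genotypes at Slc25a35, Slc25a47 and Slc25a51 (6.67%, beside 3.05% and 4.45%). With the lists cut to equal size or to the higher-scoring 50%, Slc25a35 had LSD1 in WT only, and with the latter Slc25a29 had none. Inside the gene alone, Slc25a44 and Slc25a51 had none and Slc25a35 had it in YAP only. The YAP list of LSD1 is also longer as a whole: in the carrier windows LSD1 took up 2.18 kb (WT) and 5.40 kb (YAP), a ratio of 2.47, and the ratio of the whole lists was 1.97. Of 5 WT regions 4, and of 13 YAP regions 11, lay on H3K4me2 of the same genotype.

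At 3 carriers the LSD1 region reached into the 300 bases around an annotated start site (250 before and 50 after it), and these promoters are shown. Slc25a27, Slc25a35, Slc25a37, Slc25a44, Slc25a46 and Slc25a51 have LSD1 but no annotated start here, so promoter overlap could not be judged for them. The sequences are from RefSeq, GRCm38.p6, read 5′ to 3′ on the gene's strand, with the bases inside the listed LSD1 region in capitals. Slc25a48 lies at chr13:56438105-56438404 on the plus strand, Slc25a29 at chr12:108835827-108836126 on the minus strand, and the Slc25a22 promoter belongs to an internal start at chr7:141434545-141434844 on the minus strand.
Slc25a48: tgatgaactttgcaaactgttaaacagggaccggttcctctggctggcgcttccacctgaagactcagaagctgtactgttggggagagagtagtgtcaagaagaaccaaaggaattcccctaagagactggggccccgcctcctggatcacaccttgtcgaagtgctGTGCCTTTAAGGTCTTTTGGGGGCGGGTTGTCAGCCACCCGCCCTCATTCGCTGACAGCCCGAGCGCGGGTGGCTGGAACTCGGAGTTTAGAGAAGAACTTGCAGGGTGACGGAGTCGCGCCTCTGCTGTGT
Slc25a29: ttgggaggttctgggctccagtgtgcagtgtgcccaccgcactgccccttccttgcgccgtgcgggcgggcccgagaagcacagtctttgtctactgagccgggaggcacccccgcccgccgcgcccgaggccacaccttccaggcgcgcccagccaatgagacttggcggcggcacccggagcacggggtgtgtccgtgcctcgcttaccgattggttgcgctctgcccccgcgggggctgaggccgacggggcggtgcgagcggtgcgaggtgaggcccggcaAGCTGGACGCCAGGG
Slc25a22: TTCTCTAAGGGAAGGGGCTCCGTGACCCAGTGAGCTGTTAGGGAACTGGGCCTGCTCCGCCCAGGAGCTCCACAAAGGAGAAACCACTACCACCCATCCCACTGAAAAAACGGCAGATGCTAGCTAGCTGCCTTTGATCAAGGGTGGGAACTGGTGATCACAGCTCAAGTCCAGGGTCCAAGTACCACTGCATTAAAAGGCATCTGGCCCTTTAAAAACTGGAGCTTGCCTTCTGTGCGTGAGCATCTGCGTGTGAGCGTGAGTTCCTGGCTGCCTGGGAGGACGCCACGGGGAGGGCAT

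In Slc25a48, a carrier linked to choline transport, the YAP-only LSD1 region (score 944 on the authors' scale, which runs from 540 to 1000 in these lists) covered the last 132 bases of the promoter, across the start. The WT-only region of Slc25a29, the carrier of basic amino acids, had a score of 716 and reached only the last 15 bases, from position 286 to 300. At Slc25a22, a glutamate carrier, a YAP-only region of 604 bp with a score of 642, merged from 2 listed regions, covered all 300 bases. The scores at Slc25a29 and Slc25a22 lie below the medians of their lists, 719 in WT and 762 in YAP. With lists cut to equal size or to the higher-scoring 50%, Slc25a22 kept only its other YAP region, outside this promoter. H3K4me2 covered all 300 bases of the Slc25a48 and Slc25a22 promoters in both genotypes, and 195 bases of the Slc25a29 promoter in WT and 168 in YAP. The promoters hold 14, 32 and 8 CpG dinucleotides in the order shown.

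Of the 45 carriers, 34 matched an entry among the RefSeq promoters, with 43 start sites in all. The TEAD motif GGAATG, searched on both strands (CATTCC on the other), was present in 8 of these 43 promoters (18.6%), which belong to 6 carriers, and in 13.6% of 21263 promoters of all genes. The NRF1 consensus of 10 letters, which reads the same on both strands, was in none of the 43 and in 1.33% of all. The motifs do not overlap, and neither was found in the 3 promoters shown. The median ratio of observed to expected CpG was 0.594 in the carriers and 0.567 in all promoters.

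The other YAP-only LSD1 regions lay inside the carrier or in its flank, and outside the promoter where a start is annotated. For Slc25a27, Slc25a37 and Slc25a46 no start is annotated here. In Slc25a13 the region at chr6:6185384-6185783 lay inside the gene, 31390 bp from the start, with a score of 1000, the upper end of the scale, which 805 of 3353 listed YAP regions and 273 of 1718 WT regions have. At Slc25a30, an uncoupling protein relative, chr14:75790542-75790941 lay 3505 bp upstream of the start and ranked 56 of 2949 in the YAP list by score and, among equal scores, by the authors' signal value. Slc25a33, a pyrimidine nucleotide carrier, had a region 956 bp upstream (score 1000, with no H3K4me2 under it in YAP) and another 2931 bp upstream (score 670, on H3K4me2). Slc25a22 had a further region inside the gene, 1435 bp from the nearest start, with a score of 939. The region in Slc25a27, another uncoupling protein relative, lay 297 bp inside the boundary that faces Cyp39a1 and had a low score of 566. Slc25a46, an outer membrane protein of mitochondrial dynamics, had a region 803 bp inside its upper boundary with a score of 601.

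The 3 carriers with LSD1 in both genotypes had their regions at nearly the same place in WT and YAP. Slc25a47, a carrier expressed mainly in liver, had the strongest pair: chr12:108850159-108850554 in WT and chr12:108850154-108850553 in YAP, both with a score of 1000, ranking 23 of 1500 and 27 of 2949. At Slc25a35 the WT region (score 936) ended 55 bp outside the lower boundary of the gene, and the YAP region (score 727) crossed that boundary. At Slc25a51, the mitochondrial NAD carrier, both regions lay about 4.5 kb beyond the upper boundary (4518 and 4497 bp, scores 1000 and 954), with no H3K4me2 under them in either genotype. The WT-only region of Slc25a44 spanned 600 bp and had a score of 770, and it lay in the body of the neighbouring gene Pmf1, 349 bp from the boundary of Slc25a44.

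**Figure D2:**
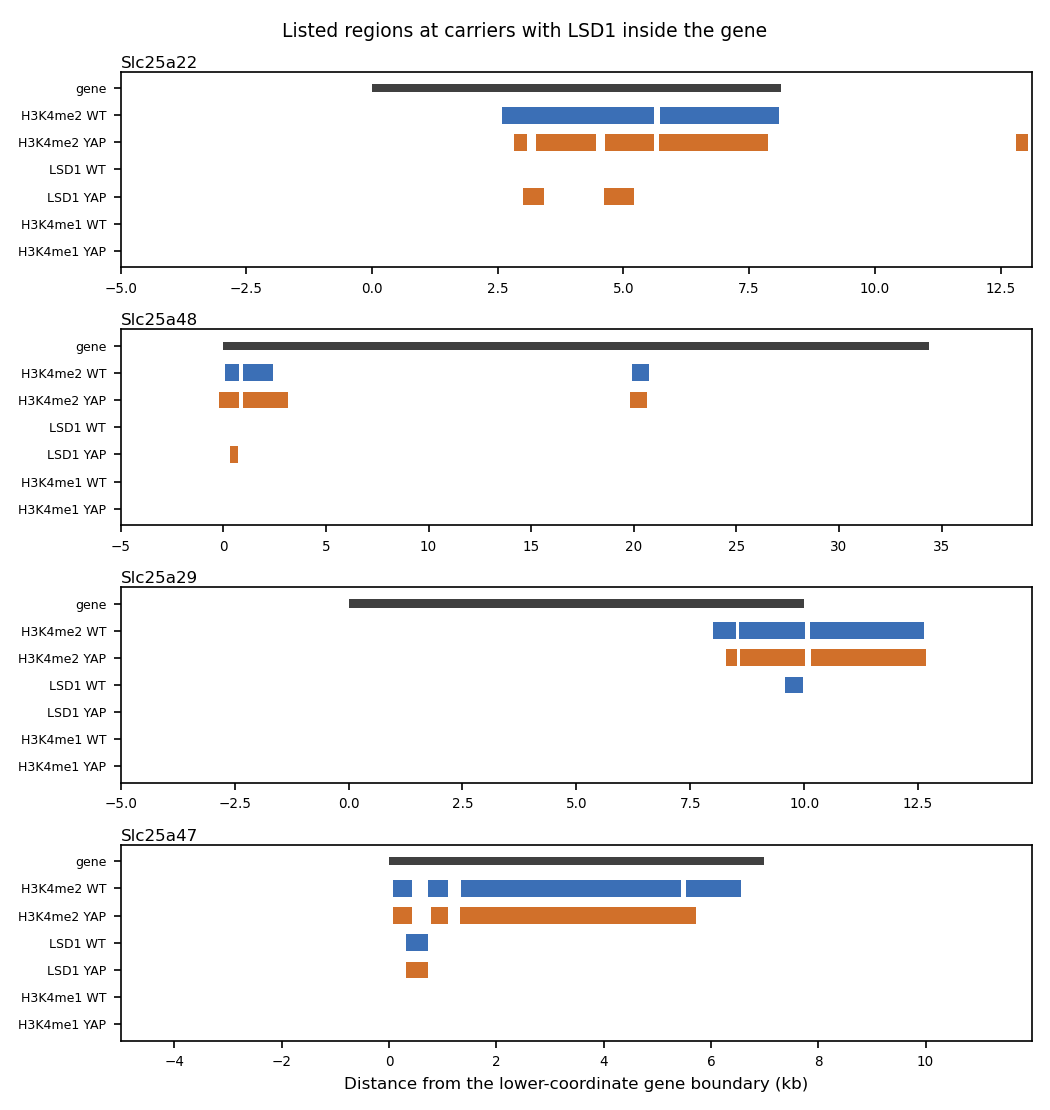
Maps of Slc25a22, Slc25a48, Slc25a29 and Slc25a47, which have an LSD1 region inside the gene, as distance in kb from the lower boundary of the gene, with the listed regions of H3K4me2, H3K4me1 and LSD1 in WT and YAP on separate rows. In Slc25a47 the LSD1 regions of both genotypes lie at the same place, and in the other maps LSD1 is present in 1 genotype.

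Carriers with LSD1 in YAP only did not share a direction of H3K4me2: 4 had fewer and 4 more covered bases in YAP, with a median log2 of 0.067. Among all 1745 genes with H3K4me2 and YAP-only LSD1, 59.9% had fewer bases and the median was -0.065. Both carriers with LSD1 in WT only and all 3 with LSD1 in both genotypes had fewer H3K4me2 bases in YAP, beside 69.7% and 66.4% of all genes in those classes. Of the 29 marked carriers without LSD1, 19 had fewer and 10 more, with a median of -0.050, and 58.1% of all such genes had fewer.

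Among the adenine nucleotide and phosphate carriers, which exchange ADP, ATP and phosphate for oxidative phosphorylation, 4 of 7 marked genes had fewer bases and 3 more (29.9 kb in WT and 30.4 kb in YAP in all, median log2 -0.0039). Slc25a4, the ADP/ATP carrier of heart and muscle, had 1.67 kb in WT and 3.11 kb in YAP (log2 0.74, at chr8:46207168-46211062). The added bases lay around its start, where coverage within 2 kb was 1.67 kb in WT and 2.99 kb in YAP. Slc25a5, the ADP/ATP carrier of proliferating tissues, had 0.702 and 1.37 kb (log2 0.64, at chrX:36795597-36798808), of which 0.656 kb was a YAP-only region with a score of 77. This region is below the median score of the YAP list, 90. The calcium-regulated ATP-Mg/phosphate carrier Slc25a25 had the second longest coverage in WT, 12.5 kb, and the longest in YAP, 11.0 kb. Its relative Slc25a23 had 7.31 and 7.29 kb, the smallest difference in the group, and the phosphate carrier Slc25a3 had 3.76 and 3.23 kb. No LSD1 region lay at any of these genes.

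Of the carboxylate and aspartate-glutamate carriers, 6 of 7 marked genes had fewer bases in YAP, and the group's sum was 47.0 kb in WT and 39.5 kb in YAP. Most of that difference came from Slc25a13 (citrin), the aspartate-glutamate carrier of liver that supplies cytosolic aspartate to the urea cycle. It had 16.1 kb in WT and 10.2 kb in YAP (log2 -0.63, at chr6:6041218-6217304) with 14 regions in each list. A WT region of 5.41 kb downstream of the start was matched in YAP by 5 shorter regions that covered 2.10 kb of it. Within 2 kb of the start the coverage was 2.83 and 2.61 kb, and elsewhere 13.2 and 7.57 kb. Slc25a1, the citrate carrier that supplies cytosolic acetyl-CoA for fatty acid synthesis, had 8.25 and 7.34 kb (log2 -0.16). Slc25a22 had 5.39 kb in 2 regions in WT and 4.84 kb in 5 regions in YAP. The oxoglutarate carrier Slc25a11 was the 1 member of the group with more bases, 6.94 and 7.21 kb (log2 0.051). Of these, 3.89 and 4.03 kb lay in the neighbouring gene Rnf167. The log2 of Slc25a11 was -0.026 with bases in other genes left out and -0.032 with no flank.

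All 4 amino acid carriers had fewer bases in YAP, 20.1 kb in WT and 15.7 kb in YAP in all. Slc25a44, which carries branched-chain amino acids, had the lowest log2 of all carriers, -0.67, with 9.42 kb in 12 regions in WT and 5.72 kb in 5 regions in YAP (chr3:88410494-88425141). The 7 WT regions with no YAP counterpart summed to 3.54 kb, lay inside the gene except for 1 in the flank, and had scores of 26 to 59, all below the WT list's median of 86. With only the higher-scoring 50% of each list, Slc25a44 had a log2 of 0.042 and Slc25a5 one of -0.87, so both directions turned. Slc25a29 had 4.44 and 4.17 kb, and the glycine carrier Slc25a38, needed for heme synthesis, had 4.30 and 4.25 kb. The 1.98 kb in WT and 1.61 kb in YAP in the window of the ornithine carrier Slc25a2 lay wholly in the neighbouring gene Taf7.

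**Figure D3:**
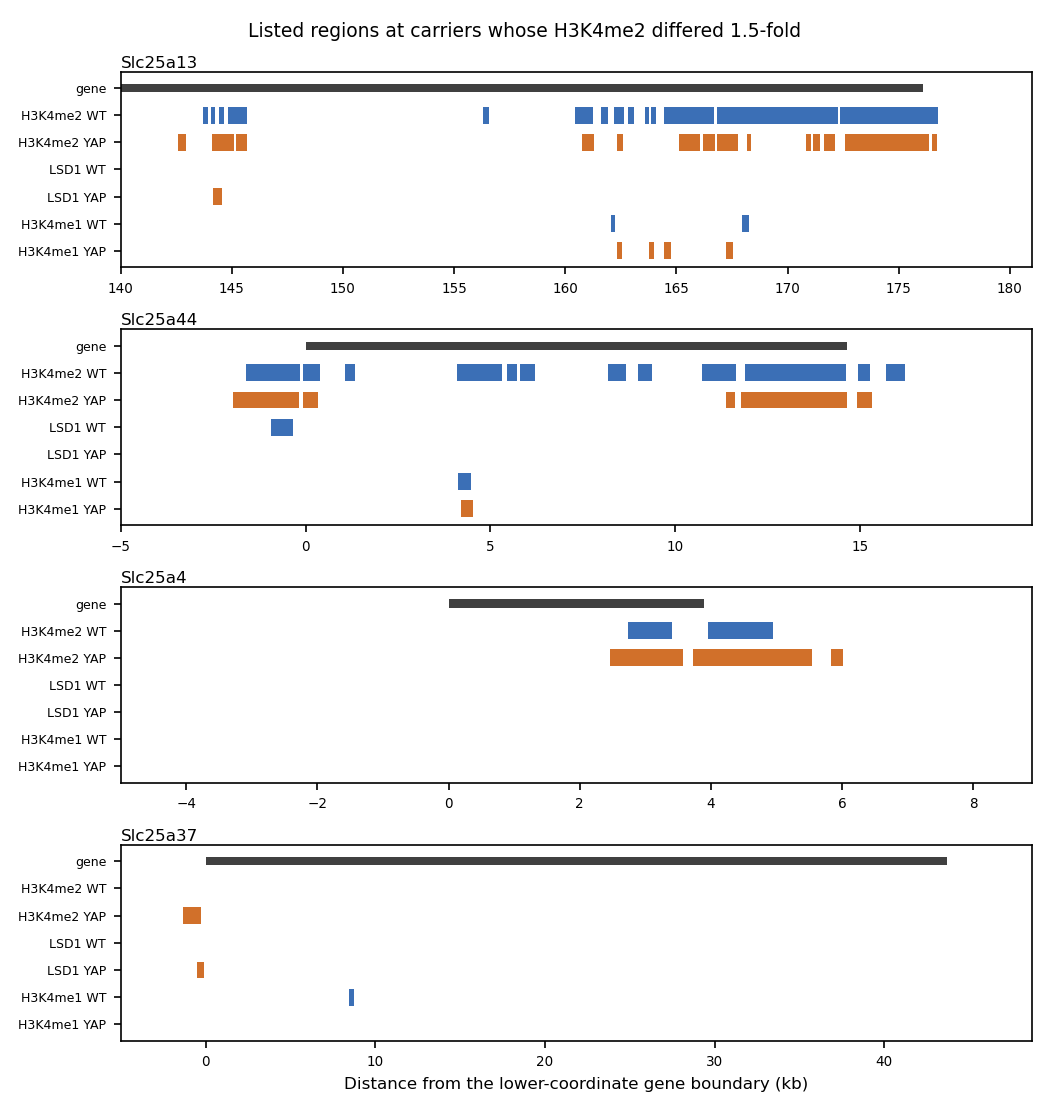
Maps of 4 carriers with a difference of at least 1.5-fold in H3K4me2-covered bases, as distance in kb from the lower boundary of the gene, with the listed regions in WT and YAP on separate rows. Slc25a13 shows the divided 5.41-kb region, and 7 of the WT regions of Slc25a44 have no YAP counterpart. Slc25a4 is wider in YAP, and Slc25a37 has its H3K4me2 region in YAP only.

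The cofactor and nucleotide carriers were the largest group, and all 11 were marked, 7 with fewer and 4 with more bases (55.6 kb in WT and 49.6 kb in YAP, median log2 -0.22). The lowest values of the group, short of 1.5-fold only because of the added bases, were those of Slc25a26, which brings S-adenosylmethionine into the matrix (3.86 and 2.45 kb, log2 -0.56), and of the coenzyme A carrier Slc25a42 (7.08 and 4.65 kb, log2 -0.56). Slc25a17, the peroxisomal carrier of coenzyme A and related cofactors, had 6.54 and 4.60 kb. Slc25a51 had 4.73 and 3.52 kb (log2 -0.38). In the other direction, the pyrimidine nucleotide carrier Slc25a36 had 2.34 and 3.41 kb (log2 0.46) and Slc25a33 had 3.64 and 4.23 kb. The related glutathione carriers differed in direction in the full lists: Slc25a40 had 4.996 kb in WT and 3.40 kb in YAP, and Slc25a39 had 5.66 and 7.72 kb. Of the YAP bases at Slc25a39, 1.56 kb lay in the neighbouring gene Rundc3a, where WT had none. The log2 of Slc25a39 was 0.11 with bases in other genes left out and -0.10 with the higher-scoring 50% of regions. At Slc25a40, 1.99 and 1.4 kb lay in the neighbouring gene Dbf4, and the 2 settings gave -0.49 and -0.67.

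The iron carriers, mitoferrins that bring iron to the matrix for heme and iron-sulfur cluster synthesis, differed from each other. Slc25a37 (mitoferrin 1), the form of erythroid cells, had no H3K4me2 in WT and a single region of 1.10 kb with a score of 128 in YAP, just outside the lower boundary of the gene (chr14:69241848-69285544). This was the longest of the 27 YAP-only regions at the carriers. A YAP-only LSD1 region with a score of 1000 (chr14:69241365-69241764) lay 84 bp from the same boundary and partly on that H3K4me2 region. Slc25a28 (mitoferrin 2), the widely expressed form, had 5.03 and 4.77 kb.

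Among the uncoupling protein relatives, Slc25a27 had 4.63 kb in WT and 6.54 kb in YAP (log2 0.46), and 2.96 and 4.42 kb of it lay in the neighbouring gene Cyp39a1. Its YAP coverage included the longest YAP region at any carrier, 5.64 kb, which joined 3 WT regions. Slc25a30 had 5.52 and 5.28 kb, and Slc25a14 1.87 and 1.81 kb. Of 8 marked carriers given no transport group here, 4 had fewer and 4 more bases. Slc25a45 had 7.52 and 4.87 kb (log2 -0.58 with the added bases). Of these bases 2.47 and 2.29 kb lay in the neighbouring gene Frmd8, and without them the log2 was -0.85, past 1.5-fold. Slc25a47 had 5.87 and 5.08 kb, Slc25a35 4.90 and 4.06 kb, and Slc25a46 2.33 and 2.03 kb. Slc25a48 had 3.02 and 4.02 kb (log2 0.36), and Slc25a43, with the shortest coverage of the carriers marked in WT, had 0.531 and 0.909 kb.

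**Figure D4:**
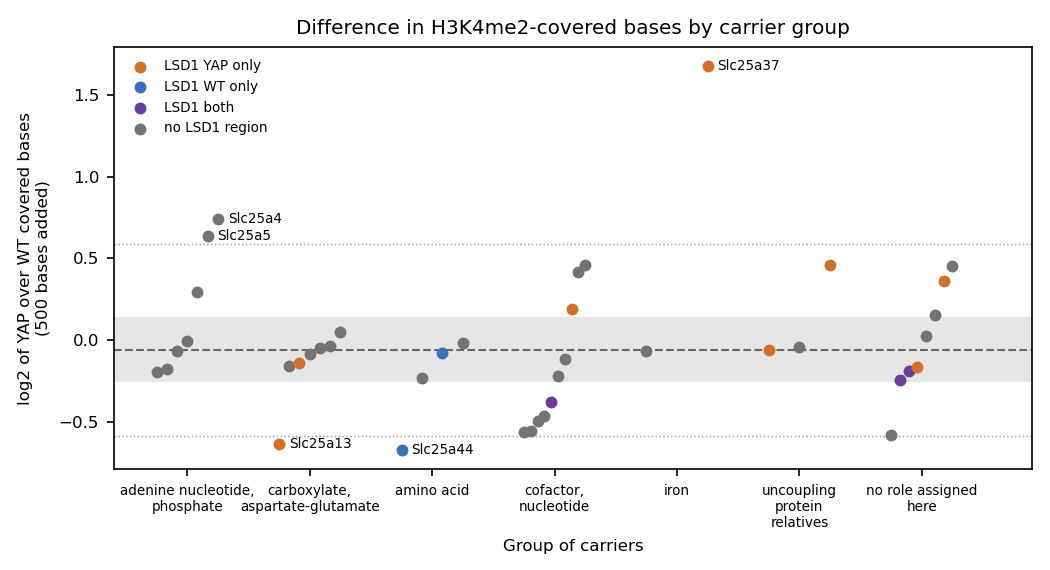
Log2 of YAP over WT H3K4me2-covered bases, with 500 bases added to both, for 41 of the carriers with H3K4me2 in either list, by group of carriers and coloured by LSD1 state. The dashed line and grey band are the median and middle 50% of all marked protein-coding genes and dotted lines mark 1.5-fold. Most carriers lie near the band, and the value of Slc25a37, listed at 0 in WT, depends on the added bases.

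The position of H3K4me2 was compared over the 34 carriers with an annotated start, after the data had been seen. It lay within 500 bp of a start in 31 of the 34 in both genotypes, and the exceptions were the 3 genes without any region. Within 2 kb of a start, coverage summed to 83.7 kb in WT and 83.1 kb in YAP, a ratio of 0.993, with 20 carriers having fewer bases and 11 more. Elsewhere in the windows it was 70.1 kb in WT and 58.3 kb in YAP, a ratio of 0.831, with 15 carriers having fewer and 13 more. Over all genes the same ratios were 0.981 near the start and 0.896 elsewhere, and 57.7% and 58.7% of genes had fewer bases there. Near the start the median log2 was -0.023 in the carriers and -0.025 in all genes. Elsewhere it was -0.019 in the carriers and -0.084 in all genes, so the lower summed ratio of the carriers was not seen in their median. Without Slc25a13 the ratio away from the start was 0.891, close to that of all genes. At 3 to 5 kb downstream of the start, a mean of 7.25 of the 34 carriers were covered in WT and 4.9 in YAP, and at 1 to 3 kb the means were 18.85 and 18.9.

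**Figure D5:**
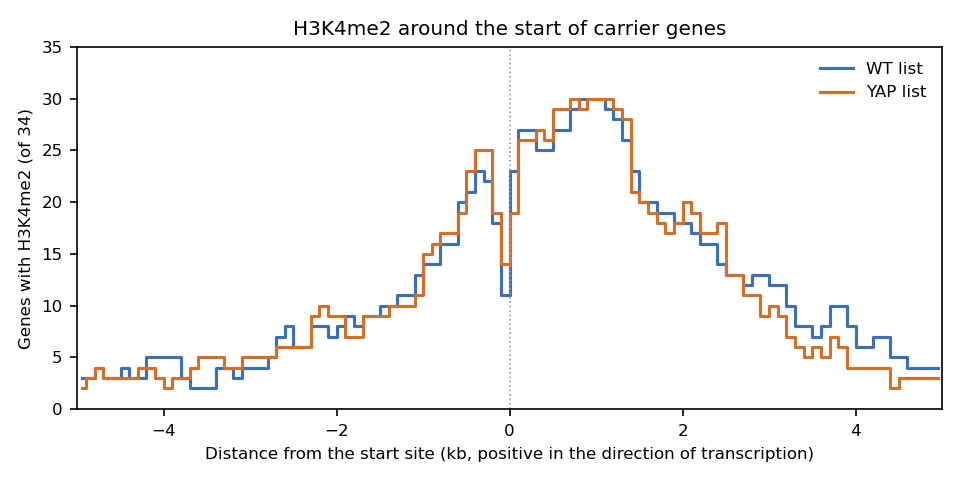
Number of the 34 carriers with an annotated start that have H3K4me2 in each 0.1-kb step from 5 kb upstream to 5 kb downstream of the start, in WT (blue) and YAP (orange). Both lines reach 30 carriers downstream of the start, dip at the start to 11 in WT and 14 in YAP, and separate 3 to 5 kb downstream.

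CpG content of the promoter did not separate the unmarked carriers from the marked ones. The promoters of Slc25a18, Slc25a54 and Slc25a31 hold 4, 15 and 22 CpG dinucleotides, and the median of the 43 carrier promoters was 15. Slc25a34, with 1 CpG in its promoter, had H3K4me2 over 2.76 kb (WT) and 2.82 kb (YAP).

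H3K4me1 regions were few and short. They lay at 10 carriers (22.2%, 12.5 to 36.3), beside 14.5% of all genes and 21.1% of those with H3K4me2. In YAP only there were 4 (Slc25a21, Slc25a28, Slc25a42 and Slc25a45, beside 4.98% and 7.24%). In WT only there were 2 (Slc25a3 and Slc25a37, beside 3.17% and 4.61%), and in both 4 (Slc25a13, Slc25a17, Slc25a25 and Slc25a44, beside 6.33% and 9.29%). The share of carriers thus lay near that of genes with H3K4me2. In the whole lists, 3986 of 5905 WT regions and 2378 of 6274 YAP regions have a deposited -log10 q of at most 0. With those left out, H3K4me1 lay in YAP only at 6 carriers, in WT only at 2 and in both at 0. In the full lists there were 10 regions in WT and 13 in YAP, of 184 to 386 bp with scores of 26 to 59. Of these, 1 WT region (10% of 10, 1.79 to 40.4, beside 25.5% of all WT regions) and 1 YAP region (7.69% of 13, 1.37 to 33.3, beside 23.5% of all YAP regions) overlapped. Most regions of the whole lists had no counterpart either, and with 1 overlapping pair the carriers cannot be told from the lists. The pair lay in Slc25a44, 362 bp in WT and 332 bp in YAP. H3K4me2 was listed at that place in WT and not in YAP. Slc25a13 had 2 regions in WT and 4 in YAP, all inside the gene between 7705 and 13721 bp from the start, and Slc25a17 had 4 regions inside the gene in WT and 1 in its flank in YAP. Slc25a25 had 1 region in WT, in the neighbouring gene Naif1, and 2 inside the gene in YAP, and Slc25a42 had 2 in YAP. Of the 23 regions, 20 lay inside the carrier and 9 lay on H3K4me2 of the same genotype.

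The 2 carriers outside the rule had fewer H3K4me2 bases in YAP as well. Slc25a15, the ornithine carrier of the urea cycle, had 10.1 kb in WT and 6.31 kb in YAP (log2 -0.64), and Slc25a20, the carnitine-acylcarnitine carrier, had 3.41 and 2.50 kb (log2 -0.38). Both had LSD1 in YAP only. A list of 23 other genes of mitochondrial transport and carrier import (pyruvate carriers, porins, sideroflexins, the calcium uniporter and the import machinery of the carriers) had 21 marked genes, 10 with fewer and 11 with more bases, and a median log2 of 0.0050. The mitochondrial pyruvate carrier subunit Mpc2 had 12.4 and 7.89 kb (log2 -0.62), and the calcium uniporter Mcu had 6.63 and 10.4 kb (log2 0.61). LSD1 was listed in YAP only at Timm22 and Tomm70a, which bring carriers to the inner membrane, and in WT only at Timm10, Sfxn2 and Sfxn5. No H3K4me2 was listed at Ucp1 or Ucp3.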

How the data were processed

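H3K4me1, H3K4me2 and LSD1 ChIP-seq of WT and YAP liver gave 1 list per antibody and genotype, from 2 replicates each, and the pooling is read from the labels' file assignment. The submitters' processing notes name mm10 and, without their order, deepTools 3.3.0, bedtools 2.26.0, Picard 1.126, SAMtools 1.7, Trimmomatic 0.39 and BWA. How peaks were called, at which threshold and whether the 2 inputs served as background is not given in the sources used here. Each region has a score deposited by the authors, a signal value deposited by the authors, and the histone lists have -log10 p and -log10 q columns deposited by the authors. In the histone lists the score equals 10 times the deposited -log10 p, rounded down. LSD1 regions are mostly 396 bp (WT) or 400 bp (YAP) wide, so their covered bases count regions.

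From these lists, overlapping regions were merged within a list. Covered bases, region numbers and overlaps of at least 1 bp were computed per gene with 5 kb on both sides, with pandas 2.3.3, numpy 2.4.6 and Python 3.11.15. The log2 was taken of YAP over WT bases after adding 500 to each, and 1.5-fold was called. Covered bases and region numbers were tested on simulated regions against bedtools 2.31.1. All members were counted, and the values of 1 carrier are not reported here. Values were named for members with LSD1, with a 1.5-fold difference, with the 5 longest H3K4me2 coverages in WT or the 5 longest H3K4me1 coverages, or with no region, and the rest as group examples, chosen as the largest and smallest differences. The members and gene lists were chosen with earlier results of these data known. Alternatives changed the flank, score cut, list size, added bases, joining distance and neighbouring genes. With 1 list per group no test was run.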

Additional observations from a re-analysis of the deposited data

How the results depend on the processing

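No paired analysis was possible because both replicates of a group share 1 list, and for the same reason no replicate could be left out. Of 102 summary values recomputed under the alternatives, 77 kept to the reported value by the rule used (within 1.5 times, or within the interval of a share) and 25 moved. Some of the 77 could not move. The number of added bases cannot change how many carriers had fewer or more bases. Asking for an overlap of 50% of the shorter region cannot change region numbers, and lists of equal size leave the shorter list as it is. The number of carriers at least 1.5-fold lower was most open to the settings: 5 with no flank, 1 with 20 kb, 6 with the higher-scoring 50% of regions, 1 with lists of equal size, 5 with 100 bases added, 5 with no bases added (chosen after seeing the data) and 0 with 2000 bases added, where 1 was at least 1.5-fold higher. Region numbers in WT and YAP were 119 and 109 with no flank, 113 and 98 with the higher-scoring 50%, where 91.8% of YAP regions were found in WT, and 74 and 73 when regions within 1 kb were joined, where 85.1% of WT regions were found in YAP and 90.4% of YAP regions in WT. LSD1 in WT only was at 1 carrier with no flank (Slc25a29), with 20 kb (Slc25a44) and with regions in other genes left out (Slc25a29), and LSD1 in both was at 1 with no flank and 8 with 20 kb. H3K4me1 in both genotypes was at 2 carriers with no flank, 2 with the higher-scoring 50% and 0 with -log10 q above 0.

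With no flank, Slc25a2, Slc25a37 and Slc25a41 had no H3K4me2 in either genotype, besides the 3 carriers with no region in any list. Of the rest, 26 had fewer and 13 more bases in YAP. With the higher-scoring 50%, Slc25a5 turned to -0.87 and Slc25a44 to 0.042. Values under 1.5-fold were 0.22 for Slc25a5 and -0.47 for Slc25a44 with 20 kb, -0.56 for Slc25a44 with lists of equal size, and, with 2000 bases added, 0.48 for Slc25a4, 0.32 for Slc25a5, -0.57 for Slc25a13 and -0.56 for Slc25a44. Chosen after seeing the data, the ratio away from the start was 0.751 when 3 kb counted as near. The cause of these shifts was not tested. Depth is unknown, so a region missing from a list cannot be told from one below the caller's threshold.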
